A study of Mus musculus with 4 samples.

Results

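The mitochondrial ribosomal protein genes were the rows whose symbol starts with Mrpl or Mrps followed by a digit. They numbered 76 of the 23359 gene rows, with 47 Mrpl genes, named for the large subunit, and 29 Mrps genes, named for the small subunit. RNA had been sequenced from tumour-initiating stem-like cells, cultured cells isolated from liver tumours of C57BL/6 mice and grown in medium with serum, EGF and dexamethasone. The cells had received both ATRA and SAHA, at 5 µg/ml and 0.5 µg/ml, SAHA alone at 0.5 µg/ml, ATRA alone at 5 µg/ml, or vehicle. ATRA is all-trans retinoic acid, a natural ligand of the retinoic acid receptors, and SAHA, or vorinostat, blocks histone deacetylases. Cells were exposed for 16 hours, while the time in vehicle is not stated. With 1 library in each of the 4 groups, differences have no replicate check, and no test, p-value or error is given. Levels are in FPKM, a count of sequenced fragments divided by transcript length and library size, as deposited.

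The mitochondrial ribosome sits in the mitochondrial matrix and makes the few proteins that mitochondrial DNA encodes, all of them parts of the respiratory chain and ATP synthase. Its RNAs come from mitochondrial DNA, whereas its proteins are made in the cytosol from nuclear genes and are imported. Many of these proteins have counterparts in the bacterial ribosome, and others were added during the evolution of mitochondria. Symbols do not always give the place of a protein: Mrps30 and Mrps18a lie in the large subunit of the mammalian mitochondrial ribosome, and Mrps36 is now known as a component of the 2-oxoglutarate dehydrogenase complex.

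All 76 genes were found in the GENCODE M21 annotation of mm10, spread over 17 chromosomes. Stretches upstream of the RefSeq start are shown for 7 genes. They include the pair with the largest excess in the combination (Mrpl49, Mrpl28). A further 3 are higher in the combination and have windows that hold an ETS motif (Mrps22, Mrpl43, Mrpl34). The others are 1 of the genes lowest in the combination (Mrpl23) and a gene that starts head to head with another ribosomal protein gene (Mrps11). Each runs 5′ to 3′ on the strand of its gene and ends at the base before the RefSeq start site (RefSeq, GRCm38.p6). It begins 150 bases upstream or, where that comes sooner, at the first exon of a neighbouring gene. The Mrpl23 stretch lies wholly inside its GENCODE locus (chr7:142532686-142540747), downstream of the gene start in that annotation. Those of Mrpl49, Mrpl28 and Mrps11 end inside their GENCODE loci. Capitals mark the ETS motif CCGGAAG.
Mrpl49 (chr19:6057756-6057843, minus strand): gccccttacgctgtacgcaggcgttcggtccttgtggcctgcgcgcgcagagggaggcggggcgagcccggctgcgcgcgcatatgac
Mrpl28 (chr17:26123353-26123502, plus strand): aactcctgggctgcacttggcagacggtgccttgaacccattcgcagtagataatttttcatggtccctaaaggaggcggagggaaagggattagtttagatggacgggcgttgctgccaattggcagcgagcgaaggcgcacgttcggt
Mrps22 (chr9:98601680-98601829, minus strand): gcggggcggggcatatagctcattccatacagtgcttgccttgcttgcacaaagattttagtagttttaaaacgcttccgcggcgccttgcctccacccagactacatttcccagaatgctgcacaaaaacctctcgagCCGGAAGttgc
Mrpl43 (chr19:45006443-45006557, minus strand): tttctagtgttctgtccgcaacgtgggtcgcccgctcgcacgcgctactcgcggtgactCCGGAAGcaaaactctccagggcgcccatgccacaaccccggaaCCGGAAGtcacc
Mrpl34 (chr8:71464776-71464925, plus strand): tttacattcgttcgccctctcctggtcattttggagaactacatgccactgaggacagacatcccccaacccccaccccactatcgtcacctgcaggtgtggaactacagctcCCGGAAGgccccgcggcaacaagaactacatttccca
Mrpl23 (chr7:142532882-142533031, plus strand): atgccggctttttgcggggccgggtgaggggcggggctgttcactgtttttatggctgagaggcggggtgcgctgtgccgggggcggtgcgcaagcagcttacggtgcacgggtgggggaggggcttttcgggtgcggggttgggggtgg
Mrps11 (chr7:78783090-78783130, plus strand): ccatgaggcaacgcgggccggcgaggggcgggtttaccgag

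The ETS motif CCGGAAG, the core recognised by GABP and other ETS factors, was searched with its reverse complement CTTCCGG in windows of 250 bases before to 50 bases after the RefSeq start. Of the 76 genes, 67 had a window. The ETS motif stood in 24 of them (35.8%), against 23.2% of the 6320 windows of expressed genes (those averaging 1 FPKM or more) and 9.93% of all 27025 windows. Among its 28 sites in the ribosomal protein windows, 23 began 60 bases upstream or closer to the start, or beyond it, and the median site began 22.5 bases upstream. The YY1 motif AAGATGGC (reverse complement GCCATCTT) stood in 12 windows (17.9%), against 6.04% of expressed and 3.19% of all windows, with a median place 15 bases downstream of the start. The core of the NRF1 motif, GCATGCGC (reverse complement GCGCATGC), stood in 8 windows (11.9%), against 6.69% of expressed and 3.05% of all windows. The longer palindromic NRF1 motif, which contains the core, stood in 3 (4.48%), against 2.41% and 1.07%. The E-box CACGTG stood in 5 windows (7.46%), against 12.4% and 8.09%, and the CRE TGACGTCA in 2 (2.99%), against 3.99% and 2.03%. ETS and YY1 motifs were thus the most frequent of those searched, each at a higher share than among expressed genes. A total of 33 windows held an ETS or YY1 motif, 3 held both, and 28 held none of the motifs. A match says only that these letters are present. The windows of Mrpl28 and Mrpl23 held none of the motifs. The Mrpl23 window that holds the printed stretch begins downstream of the GENCODE gene start and does not cover sequence upstream of it. The window of Mrpl49 held a YY1 and a CRE motif and that of Mrps11 a YY1 motif, all outside the shorter stretches printed.

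**Figure D1:**
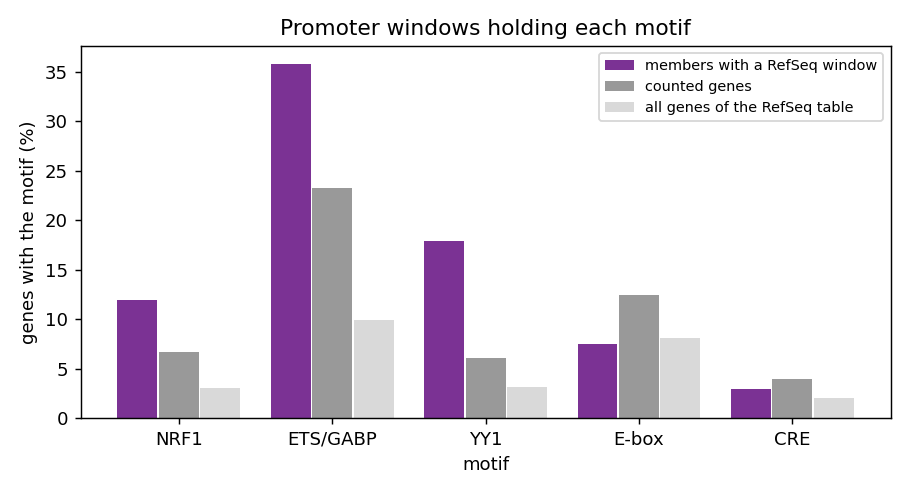
Share of promoter windows (y axis, %) that hold each motif (x axis, with NRF1 as the core GCATGCGC), for the 67 mitochondrial ribosomal protein genes with a RefSeq window, the 6320 windows of expressed genes and all 27025 windows. The ETS motif stands in 35.8% of the ribosomal protein windows and the YY1 motif in 17.9%, against 23.2% and 6.04% of the expressed genes' windows.

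Depth was estimated from the lowest repeated step in the values of 1163 to 1212 low genes. By this estimate 1 FPKM over 1 kilobase stood for about 96.7 to 101 fragments in the 4 libraries. In the combination library the second step lay at 2.61 times the first rather than near 2. Both steps were searched only within fixed ranges, so the search itself limited how far the libraries could differ. With this estimate the median ribosomal protein gene had about 488 to 734 fragments per kilobase in a library. The row Gm20594 alone held 10.3% of all FPKM in the combination library and 33.9% in the SAHA library, against 16.6% in the ATRA library and 18.0% in the vehicle library. The part of this row in the differences below was not tested. None of the 8 hepatocyte markers reached 1 FPKM in any library, and their summed level was 0.202 to 0.457 FPKM. Albumin (Alb) was listed at 0 in the SAHA library. Of the 7 mesenchymal markers 3 averaged 1 FPKM or more, and the 7 summed to 377 FPKM with both compounds, 335 FPKM with SAHA, 484 FPKM with ATRA and 616 FPKM with vehicle, mostly from Vim. Of the 7 tumour stem cell markers 3 averaged 1 FPKM or more, namely Cd44, Ly6a and Tlr4, and the 7 summed to 21.7 FPKM with both compounds, 33.04 FPKM with SAHA, 56.9 FPKM with ATRA and 95.2 FPKM with vehicle. Of these, Ly6a had 0.352 FPKM with both compounds and 28.2 FPKM with vehicle, and Tlr4 had 0.333 FPKM with both compounds and 5.09 FPKM with vehicle. The 5 biliary markers, mostly Spp1, summed to 436 FPKM with both compounds, 942 FPKM with SAHA, 572 FPKM with ATRA and 339.8 FPKM with vehicle. The 5 epithelial markers, mostly Krt18, summed to 46.3 FPKM with both compounds, 70.3 FPKM with SAHA, 117 FPKM with ATRA and 97.7 FPKM with vehicle. None of the 4 endothelial markers, and of the macrophage markers only Cd68, reached a mean of 1 FPKM. The part of these markers in the differences below was not tested. In RNA from whole cultures, fewer cells of a type and less RNA per cell cannot be told apart.

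Of the 76 genes, 75 averaged 1 FPKM or more across the libraries and were counted, with 46 of the large and 29 of the small subunit. Mrpl11, a protein at the base of the stalk where translation factors bind, was below this level, at 0.349 FPKM in the combination library, 0.553 FPKM with SAHA, 0.762 FPKM with ATRA and 0.664 FPKM with vehicle. The counted genes covered a wide range of levels, in the vehicle library between 0.888 FPKM (Mrpl41) and 30.6 FPKM (Mrps21). The highest by mean level were Mrps21, a small subunit protein with a bacterial counterpart, and Mrpl30, a large subunit protein with one. Mrpl30 had 35.3 FPKM in the combination library, 34.7 FPKM with SAHA, 21.8 FPKM with ATRA and 22.2 FPKM with vehicle. Mrpl19, Mrpl17 and Mrps25 had means just above the mark, at 1.04, 1.16 and 1.16 FPKM. The median gene had 7.41 FPKM in the combination library, 5.23 FPKM with SAHA, 5.63 FPKM with ATRA and 5.04 FPKM with vehicle. The combination library was therefore the highest by median, and the other 3 lay close together. The large subunit medians were 6.54 FPKM with both compounds, 5.22 FPKM with SAHA, 5.74 FPKM with ATRA and 4.84 FPKM with vehicle. Those of the small subunit were 8.38 FPKM with both compounds, 5.34 FPKM with SAHA, 5.45 FPKM with ATRA and 5.13 FPKM with vehicle. All counted genes together summed to 758 FPKM in the combination library, 610 FPKM with SAHA, 515 FPKM with ATRA and 472 FPKM with vehicle. That was 0.245% of the library's total with both compounds, 0.236% with SAHA, 0.169% with ATRA and 0.177% with vehicle.

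**Figure D2:**
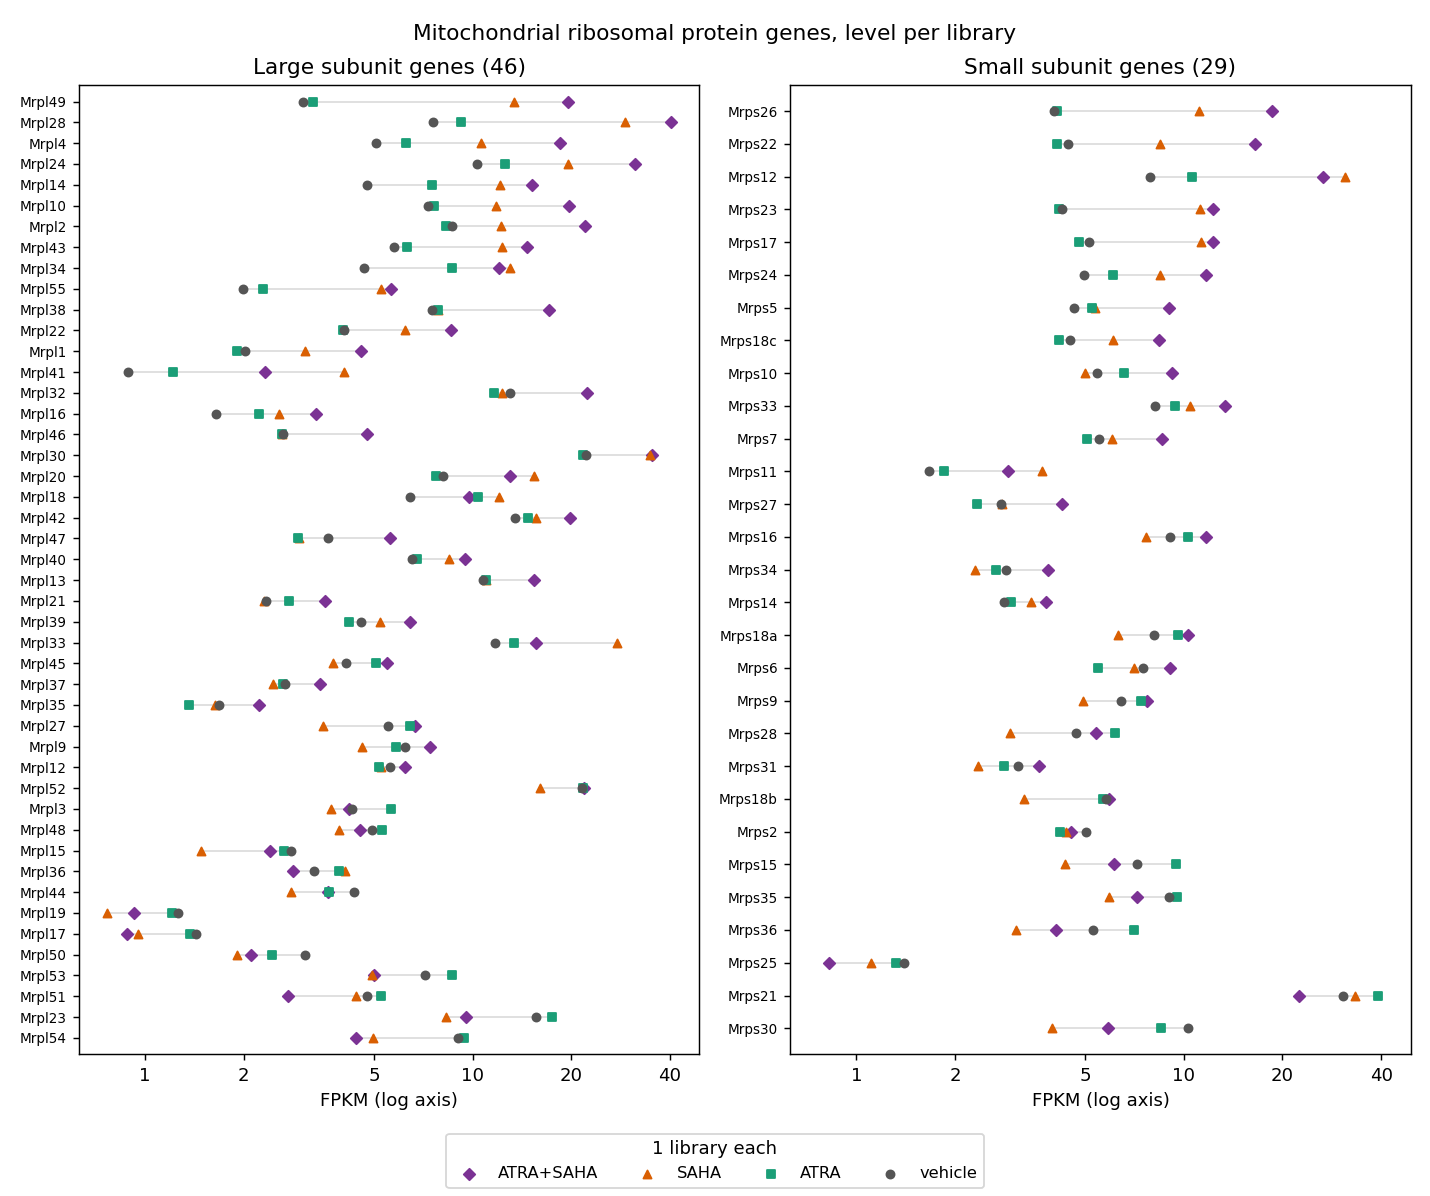
Level of each mitochondrial ribosomal protein gene (rows) in FPKM (x axis, log scale) in the ATRA+SAHA, SAHA, ATRA and vehicle libraries, 1 point per library, with large and small subunit genes in separate panels. Mrpl28, Mrpl49 and Mrps26 show the combination and SAHA points far to the right of the ATRA and vehicle points, whereas Mrpl12 and Mrps2 show all 4 points close together.

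With both compounds, mitochondrial ribosomal protein genes of both subunits were mostly higher than with vehicle, and none was lower by the 2-fold mark. This mark is a difference of 1 or more in log2(FPKM + 1), a scale that understates the difference of low genes. At it, 17 of the 75 counted genes (22.7%) were higher in the combination library, against 11.1% of all 8616 counted genes, and 0 were lower, against 12.6% of all counted genes. The large subunit held 11 of its 46 genes among those higher, and the small subunit 6 of its 29. At 1.5-fold on the same scale, 29 were higher and 4 lower (38.7% and 5.33%), against 23.9% and 22.8% of all counted genes. The median log2 difference was 0.44 over the 75 genes, 0.48 for the large subunit and 0.33 for the small subunit, beside 0.04 over all counted genes. The difference was above 0 in 56 of the 75 genes (74.7%), against 51.8% of all counted genes.

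Mrpl49, a mitochondria-specific protein of the large subunit (chr19:6053622-6057785, minus strand, GENCODE M21 on mm10), had the largest excess. Its level was 19.5 FPKM with both compounds, 13.4 FPKM with SAHA, 3.26 FPKM with ATRA and 3.03 FPKM with vehicle. The combination and SAHA libraries were high and the other 2 low, and the combination stood 6.45-fold above vehicle (log2 difference 2.35 on the log2(FPKM + 1) scale). Its locus in the table overlaps that of Syvn1, which had 1.77 FPKM in the combination library and 0.972 FPKM in the vehicle library. Mrpl28, a large subunit protein with a bacterial counterpart (chr17:26123500-26126613, plus strand), had 40.4 FPKM with both compounds, 29.2 FPKM with SAHA, 9.18 FPKM with ATRA and 7.54 FPKM with vehicle. It had the highest level of all counted members in the combination library, 5.35-fold that of vehicle.

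Among small subunit genes, Mrps26, a mitochondria-specific protein (chr2:130563742-130568695, plus strand), showed the same order of libraries. It had 18.5 FPKM with both compounds, 11.1 FPKM with SAHA, 4.09 FPKM with ATRA and 4.01 FPKM with vehicle, a 4.61-fold excess of the combination over vehicle. Mrps22, another mitochondria-specific protein, whose human gene is mutated in a mitochondrial disease with cardiomyopathy (chr9:98588730-98601660, minus strand), had 16.5 FPKM with both compounds, 8.46 FPKM with SAHA, 4.10 FPKM with ATRA and 4.42 FPKM with vehicle. Here the combination stood 3.73-fold above vehicle and 1.95-fold above SAHA. Mrps12, the counterpart of the bacterial protein at the decoding centre (chr7:28739641-28741820, minus strand), was highest with SAHA alone. It had 26.6 FPKM with both compounds, 30.9 FPKM with SAHA, 10.6 FPKM with ATRA and 7.88 FPKM with vehicle.

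The other large subunit genes past the 2-fold mark include proteins of the peptide exit tunnel and of the stalk base. Mrpl4, which lines the tunnel in the bacterial ribosome, had 18.5 FPKM with both compounds, 10.6 FPKM with SAHA, 6.24 FPKM with ATRA and 5.05 FPKM with vehicle. Mrpl24, the counterpart of a bacterial protein at the tunnel exit, had 31.3 FPKM with both compounds, 19.5 FPKM with SAHA, 12.5 FPKM with ATRA and 10.3 FPKM with vehicle. Mrpl2, near the peptidyl transferase centre, had 22.1 FPKM with both compounds, 12.2 FPKM with SAHA, 8.27 FPKM with ATRA and 8.65 FPKM with vehicle. Mrpl10, which anchors the stalk, had 19.6 FPKM with both compounds, 11.8 FPKM with SAHA, 7.60 FPKM with ATRA and 7.29 FPKM with vehicle. In these 4 genes the combination was the highest library and SAHA the next. The log2 differences between combination and vehicle were 1.49 for Mrpl14, 1.21 for Mrpl43, 1.21 for Mrpl34, 1.15 for Mrpl55 and 1.08 for Mrpl38. Of the small subunit, Mrps23 stood 1.34 higher, Mrps17 1.12 higher and Mrps24 1.09 higher on this scale. The smallest of these differences, those of Mrpl38 and Mrps24, lie just inside the mark, while Mrpl22 (0.92) and Mrpl1 (0.88) lie just outside it.

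The genes lowest in the combination relative to vehicle did not reach the 2-fold mark. Mrpl54, a mitochondria-specific protein of the large subunit (chr10:81264713-81266934, minus strand), had 4.42 FPKM with both compounds, 4.96 FPKM with SAHA, 9.38 FPKM with ATRA and 9.02 FPKM with vehicle, a log2 difference of -0.89 between combination and vehicle. With a pseudocount of 0.1 in place of 1 the difference was -1.01, past the mark. Mrpl23, at the tunnel exit, had 9.53 FPKM with both compounds, 8.28 FPKM with SAHA, 17.5 FPKM with ATRA and 15.6 FPKM with vehicle (-0.66). In both genes the SAHA-treated libraries were the low ones. Mrps30 had 5.86 FPKM with both compounds, 3.96 FPKM with SAHA, 8.49 FPKM with ATRA and 10.3 FPKM with vehicle (-0.72). Mrpl51 had a log2 difference of -0.63, Mrpl53 of -0.44 and Mrps21 of -0.42.

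The combination was the highest of the 4 libraries for 48 of the 75 counted genes (64.0%), against 35.9% of all counted genes. It was the lowest for 6 (8.0%), against 19.2% of all counted genes. This held alike in the large subunit, with 29 of 46 highest in the combination, and in the small subunit, with 19 of 29. Transcript length went along with the difference between combination and vehicle: the 53 counted genes whose longest coding transcript is under 2000 bases had a median of 0.53, and the 22 with longer transcripts had 0.12. The same medians were 0.18 over the 2182 counted genes with such short transcripts and -0.03 over the 5600 with longer ones. Of those 2182, 15.9% were higher and 11.9% lower in the combination than with vehicle at the 2-fold mark. At 1.5-fold 29.8% were higher and 19.6% lower, and 59.4% were above 0. Each of these shares lies between that of all counted genes and that of the 75 mitochondrial ribosomal protein genes. The part of transcript length in the result was not tested further. The 44 counted genes with a bacterial counterpart had a median of 0.52 with 10 past the mark (22.7%). The 29 mitochondria-specific genes had 0.33 with 6 (20.7%), a similar share, against 11.1% of all counted genes.

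**Figure D3:**
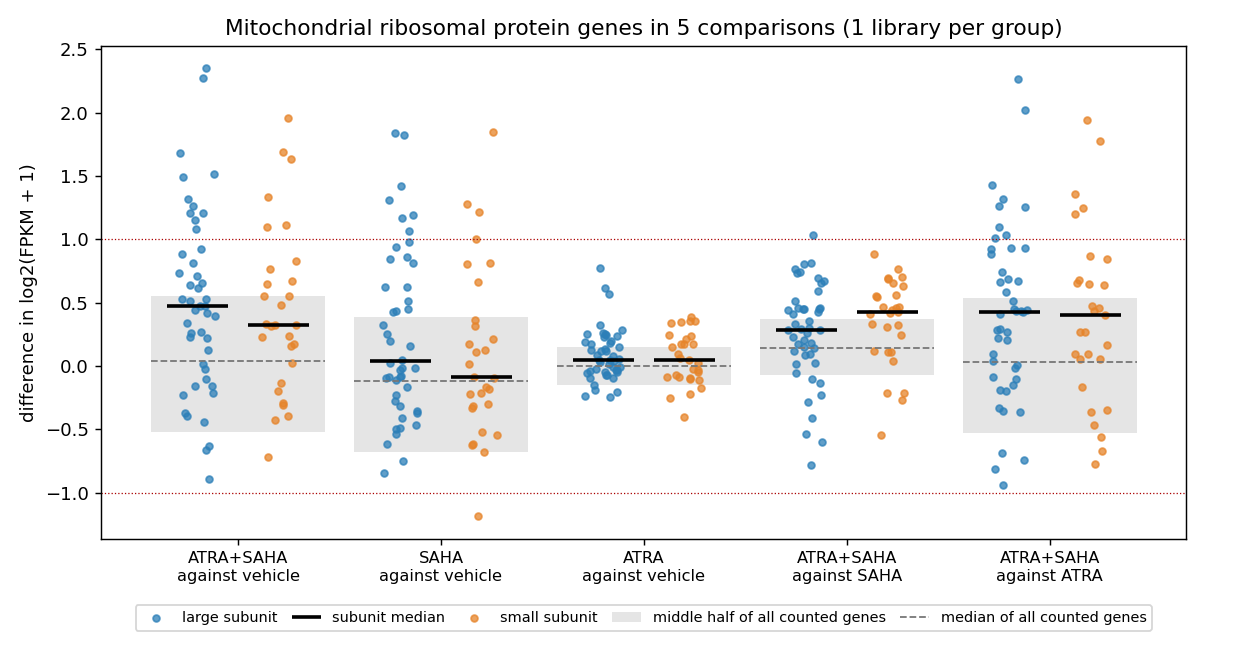
Difference in log2(FPKM + 1) (y axis) of each counted gene in 5 comparisons (x axis), with large and small subunit genes apart. Black bars are subunit medians, the grey band is the middle 50% of all counted genes, the dashed line their median, and dotted lines mark differences of 1 and -1. In the combination against vehicle the medians of both subunits, 0.48 and 0.33, lie above the median of all counted genes, 0.04, and no point lies under -1.

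SAHA alone gave a more divided picture, with a group of genes far above vehicle and about as many genes below it as above it. At the 2-fold mark 11 of the 75 genes (14.7%) were higher with SAHA, against 7.88% of all counted genes, and 1 (1.33%) was lower, against 16.0%. At 1.5-fold, 21 were higher (28.0%), against 18.1% of all counted genes, and 7 were lower (9.33%), against 28.4%. The count of 7 depended on the processing: it was 13 with a pseudocount of 0.1. It was 3 with each library centred on the median of all counted genes relative to vehicle. The shares of all counted genes under these 2 settings are not given. The median difference was 0.01 over the 75 genes, 0.04 for the large and -0.08 for the small subunit, beside -0.12 over all counted genes. The difference was above 0 in 38 genes (50.7%) and below 0 in 37, against 42.9% and 56.6% of all counted genes.

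Of the 11 genes higher with SAHA, 9 were also past the mark in the combination: Mrpl14, Mrpl28, Mrpl34, Mrpl49, Mrpl55, Mrps12, Mrps17, Mrps23 and Mrps26. Both comparisons use the same vehicle library, so their values are not independent. The other 2 were Mrpl33 and Mrpl41. Mrpl33, a large subunit protein with a bacterial counterpart, had 15.6 FPKM with both compounds, 27.6 FPKM with SAHA, 13.4 FPKM with ATRA and 11.7 FPKM with vehicle. SAHA alone was the high library, 2.36-fold above vehicle. Mrpl41, a mitochondria-specific protein, had 2.32 FPKM with both compounds, 4.04 FPKM with SAHA, 1.22 FPKM with ATRA and 0.888 FPKM with vehicle, at a low level in all 4 libraries. The single gene lower with SAHA at the mark was Mrps30, with a log2 difference of -1.18. Mrpl23 followed with -0.84, Mrpl54 with -0.75 and Mrps18b with -0.68.

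With ATRA alone no gene passed the 2-fold mark relative to vehicle: 0 of the 75 genes were higher, against 0.917% of all counted genes, and 0 were lower, against 1.20%. At 1.5-fold 2 genes were higher (2.67%), against 3.09%, and 0 were lower, against 2.76%, shares near those of all counted genes. The median difference was 0.05 in both subunits, beside -0.0005 over all counted genes. The 2 genes were Mrpl34 and Mrpl18, both large subunit proteins with bacterial counterparts. Mrpl34 had 12.04 FPKM with both compounds, 12.99 FPKM with SAHA, 8.67 FPKM with ATRA and 4.64 FPKM with vehicle, so all 3 treated libraries were above vehicle. Mrpl18, whose bacterial counterpart binds a small ribosomal RNA of the large subunit, had 9.73 FPKM with both compounds, 12.1 FPKM with SAHA, 10.4 FPKM with ATRA and 6.42 FPKM with vehicle, again with vehicle the lowest. Mrpl14 had a log2 difference of 0.57 with ATRA, just under the 1.5-fold mark of 0.58. Mrps6, a small subunit protein with a bacterial counterpart, was lowest relative to vehicle, at 5.45 FPKM with ATRA and 7.503 FPKM with vehicle (-0.40). Its locus overlaps that of Slc5a3.

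Set against SAHA alone, the combination was above SAHA for 62 of the 75 genes (82.7%), mostly by small amounts, and for 66.7% of all counted genes. At the 2-fold mark 1 gene was higher (1.33%), against 3.04% of all counted genes, and 0 were lower, against 0.929%. At 1.5-fold, 17 were higher (22.7%), against 11.5%, and 2 were lower (2.67%), against 3.10%. The median difference was 0.33, with 0.29 for the large and 0.43 for the small subunit, beside 0.14 over all counted genes. The gene past the mark was Mrpl38, a mitochondria-specific protein of the central protuberance (chr11:116131817-116138868, minus strand). It had 17.1 FPKM with both compounds, 7.81 FPKM with SAHA, 7.83 FPKM with ATRA and 7.53 FPKM with vehicle, so the combination alone stood apart from 3 nearly equal libraries. With each library centred on the median of all counted genes relative to vehicle, its difference from SAHA was 0.88, under the mark.

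Other genes with a like order were Mrpl32 and Mrpl47. Mrpl32, whose precursor the mitochondrial protease AFG3L2 processes, had 22.3 FPKM with both compounds, 12.3 FPKM with SAHA, 11.6 FPKM with ATRA and 13.04 FPKM with vehicle. Mrpl47 had 5.57 FPKM with both compounds, 2.95 FPKM with SAHA, 2.92 FPKM with ATRA and 3.61 FPKM with vehicle. Both were highest in the combination, with both single treatments below vehicle. Mrpl27 and Mrps10 stood 0.77 above SAHA on the log2 scale. Mrpl33 (-0.78) and Mrpl41 (-0.60) were the 2 genes lower at the 1.5-fold mark, followed by Mrps21 (-0.55) and Mrpl51 (-0.53).

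Set against ATRA alone, the combination was higher at the 2-fold mark for 14 of the 75 genes (18.7%), against 10.5% of all counted genes, and lower for 0, against 11.9%. The difference was above 0 in 55 genes (73.3%), against 51.8% of all counted genes, and below 0 in 20. The median difference was 0.43, with 0.43 for the large and 0.40 for the small subunit, beside 0.03 over all counted genes. Mrpl49 (2.27), Mrpl28 (2.02), Mrps26 (1.94) and Mrps22 (1.78) were highest. Mrpl54 (-0.94) and Mrpl23 (-0.81) were lowest. These are the genes at the ends of the comparison with vehicle, which used the same combination library.

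The departure from additivity is the log2 difference of the combination from vehicle minus the sum of those of ATRA and SAHA. Its median over the 75 genes was 0.30, with 0.25 for the large and 0.38 for the small subunit, beside 0.15 over all counted genes. It was 0.5 or more in 21 genes (28.0%), against 19.4% of all counted genes, and -0.5 or less in 8 (10.7%), against 6.94%. It was highest for Mrpl38 (0.99), Mrps22 (0.98), Mrpl47 (0.97) and Mrpl32 (0.96). It was lowest for Mrpl33 (-0.96), Mrpl18 (-0.90), Mrps21 (-0.89) and Mrpl34 (-0.88), 3 of which were highest with SAHA alone. Mrps21 was the exception, with 22.5 FPKM with both compounds, 33.4 FPKM with SAHA, 39.2 FPKM with ATRA and 30.6 FPKM with vehicle, so that the combination was its lowest library. A high value with SAHA or ATRA alone lowers the departure by its definition, so these orders of libraries are partly built in.

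**Figure D4:**
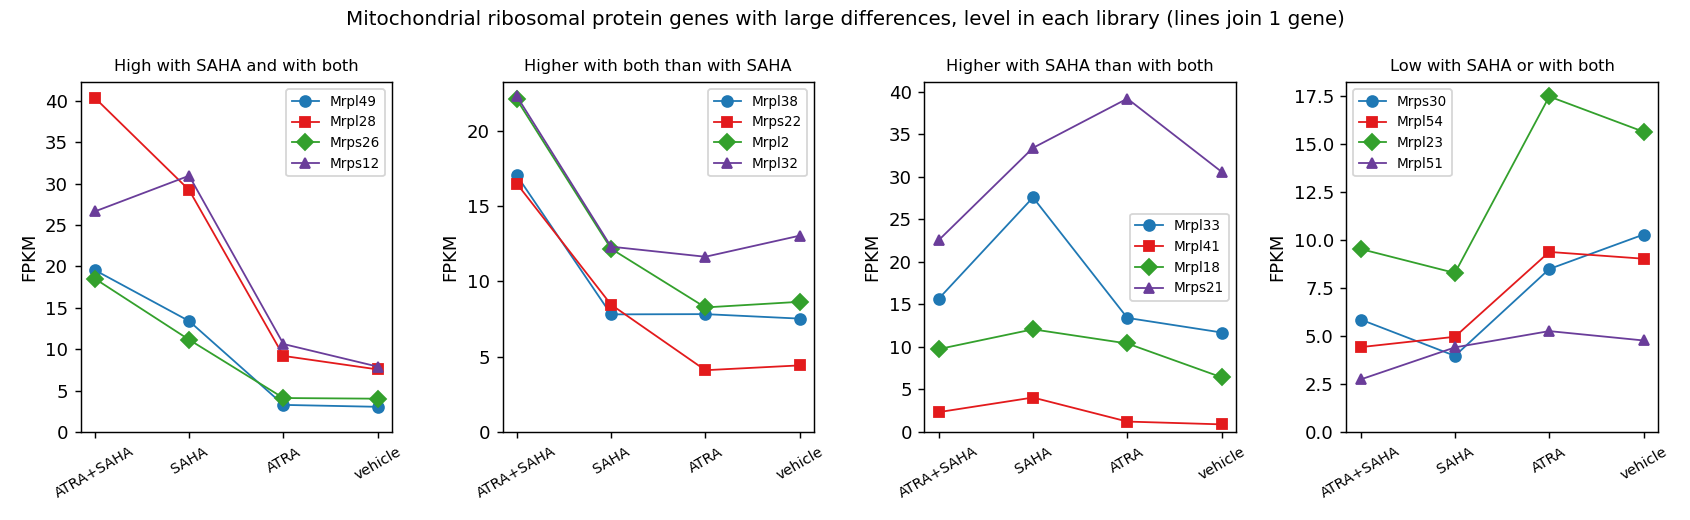
Levels in FPKM (y axis, from 0) of selected mitochondrial ribosomal protein genes across the ATRA+SAHA, SAHA, ATRA and vehicle libraries (x axis), 1 value per library; lines only join the points of a gene. Mrpl49 and Mrpl28 are high in both SAHA-treated libraries, Mrpl38 is high only in the combination (17.1 FPKM), Mrpl33 is highest with SAHA alone (27.6 FPKM), and Mrps21 is lowest in the combination (22.5 FPKM).

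Some genes had much the same level in every library. Mrpl12, the stalk protein that recruits translation factors, had 6.20 FPKM with both compounds, 5.23 FPKM with SAHA, 5.18 FPKM with ATRA and 5.60 FPKM with vehicle. Mrps2 had 4.52 FPKM with both compounds, 4.37 FPKM with SAHA, 4.17 FPKM with ATRA and 5.04 FPKM with vehicle. These genes, with Mrps14 and Mrpl19, had the smallest ranges over the 4 libraries on the log2(FPKM + 1) scale, which narrows the range of low genes such as Mrpl19. Mrpl45 and Mrpl44 varied more, with ranges of 0.45 and 0.49 on that scale, against 0.22 for both Mrpl12 and Mrps2. Mrpl45, which tethers the ribosome to the inner membrane, had 5.46 FPKM with both compounds, 3.74 FPKM with SAHA, 5.06 FPKM with ATRA and 4.11 FPKM with vehicle. Mrpl44, which has an RNase III fold, had 3.60 FPKM with both compounds, 2.79 FPKM with SAHA, 3.64 FPKM with ATRA and 4.34 FPKM with vehicle.

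The 3 Mrps18 genes encode related proteins at different places in the ribosome. Mrps18a had 10.3 FPKM with both compounds, 6.29 FPKM with SAHA, 9.56 FPKM with ATRA and 8.08 FPKM with vehicle. Mrps18b had 5.90 FPKM with both compounds, 3.24 FPKM with SAHA, 5.64 FPKM with ATRA and 5.78 FPKM with vehicle. Mrps18c had 8.38 FPKM with both compounds, 6.07 FPKM with SAHA, 4.15 FPKM with ATRA and 4.50 FPKM with vehicle. SAHA alone was thus the lowest library for Mrps18a and Mrps18b, while both SAHA-treated libraries were above the others for Mrps18c. Mrps36 had 4.06 FPKM with both compounds, 3.08 FPKM with SAHA, 7.05 FPKM with ATRA and 5.27 FPKM with vehicle, so both SAHA-treated libraries were below vehicle.

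The ETS and YY1 motifs were also counted by difference. Of the genes past the 2-fold mark, 15 had a promoter window, and 6 of these held an ETS motif, against 18 of the 51 other counted genes with a window. The YY1 motif stood in 3 of the 15 and in 9 of the 51. Of the factors that bind such motifs, Gabpa had 3.28 FPKM with both compounds, 3.43 FPKM with SAHA, 5.57 FPKM with ATRA and 5.83 FPKM with vehicle. Yy1 had 7.87 FPKM with both compounds, 5.63 FPKM with SAHA, 9.64 FPKM with ATRA and 11.6 FPKM with vehicle. Gabpa and Yy1 were thus lower in both SAHA-treated libraries than in the others. Nrf1 had 5.66 FPKM with both compounds, 4.47 FPKM with SAHA, 4.99 FPKM with ATRA and 5.00 FPKM with vehicle. Of 9 counted regulators of nuclear genes for mitochondria, 1 was higher and 2 lower in the combination than with vehicle at the 2-fold mark. The shares of all counted genes were 11.1% and 12.6%, and no difference from them is drawn from 9 genes. Esrra, a nuclear receptor that acts on mitochondrial genes, had 7.98 FPKM with both compounds and 2.29 FPKM with vehicle. Myc had 13.1 FPKM with both compounds and 44.7 FPKM with vehicle, and the coactivator gene Pprc1 had 0.537 FPKM with both compounds and 2.20 FPKM with vehicle.

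Of the 76 genes, 25 had a head-to-head partner, which starts in the opposite direction within 1000 bases, or with an overlap of up to 500 bases. The share of such genes over all genes was not computed, so the count is not read as a trait of this set. The partners below were picked after their values were seen. Mrpl46 and Mrps11 lie head to head on chromosome 7. Their GENCODE loci overlap, and the stretch printed above for Mrps11 lies within the GENCODE locus of Mrpl46, so reads from the overlap were not separated here. Mrpl46 had 4.75 FPKM with both compounds, 2.61 FPKM with SAHA, 2.62 FPKM with ATRA and 2.64 FPKM with vehicle, so the combination alone was high. Mrps11 had 2.91 FPKM with both compounds, 3.70 FPKM with SAHA, 1.85 FPKM with ATRA and 1.67 FPKM with vehicle, with both SAHA-treated libraries high. Mrpl49 starts 58 bases from Fau, which encodes a cytosolic ribosomal protein fused to a ubiquitin-like domain. Fau had 177 FPKM with both compounds, 132 FPKM with SAHA, 142 FPKM with ATRA and 131 FPKM with vehicle, a narrower range than that of Mrpl49. Mitd1, 65 bases from Mrpl30, had 2.26 FPKM with both compounds and 8.003 FPKM with vehicle, the opposite direction to Mrpl30. Psma2, a proteasome subunit 74 bases from Mrpl32, had 27.5 FPKM with both compounds and 13.8 FPKM with vehicle, the same direction as Mrpl32.

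The 7 mitochondrial ribosome proteins whose symbols lack the Mrpl or Mrps prefix were all counted. Between combination and vehicle 0 of them passed the 2-fold mark, against 11.1% higher and 12.6% lower of all counted genes. With SAHA alone 0 were higher and 2 were lower than with vehicle, against 7.88% and 16.0% of all counted genes. No difference from these shares is drawn from 7 genes. The 2 were Chchd1 (7.52 FPKM with SAHA and 16.2 FPKM with vehicle) and Gadd45gip1 (2.71 FPKM with SAHA and 6.52 FPKM with vehicle). Dap3, of the small subunit, had 4.07 FPKM with both compounds, 2.74 FPKM with SAHA, 1.66 FPKM with ATRA and 1.57 FPKM with vehicle. Ptcd3, also of the small subunit, had 8.33 FPKM with both compounds, 8.78 FPKM with SAHA, 4.13 FPKM with ATRA and 4.37 FPKM with vehicle. Ict1, a peptidyl-tRNA hydrolase built into the large subunit, had 12.1 FPKM with both compounds, 9.52 FPKM with SAHA, 9.06 FPKM with ATRA and 7.57 FPKM with vehicle.

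Of 30 genes for assembly of the mitochondrial ribosome, 22 were counted, and at the 2-fold mark 3 were higher and 0 lower in the combination than with vehicle, a share of higher genes near the 11.1% of all counted genes. Rpusd4, a pseudouridine synthase, was the lowest of them, with a log2 difference of -0.95. Mpv17l2, which is needed for assembly, had 11.9 FPKM with both compounds, 9.65 FPKM with SAHA, 2.42 FPKM with ATRA and 1.79 FPKM with vehicle. Afg3l2, the protease subunit named above, had 8.28 FPKM with both compounds, 6.35 FPKM with SAHA, 2.79 FPKM with ATRA and 2.53 FPKM with vehicle. Rbfa, a maturation factor of the small subunit, had 12.3 FPKM with both compounds, 10.0 FPKM with SAHA, 5.15 FPKM with ATRA and 4.25 FPKM with vehicle. All 3 were high in both SAHA-treated libraries. Of 12 counted translation factors, 1 was higher and 1 lower in the combination at the same mark, against 11.1% and 12.6% of all counted genes. Tufm, the elongation factor that delivers aminoacyl-tRNA, had 14.6 FPKM with both compounds, 12.4 FPKM with SAHA, 5.70 FPKM with ATRA and 4.87 FPKM with vehicle. Pdf, the deformylase of the first methionine, had 0.982 FPKM with both compounds and 3.19 FPKM with vehicle. A further list held 14 counted genes for copying or transcribing mitochondrial DNA or for handling its RNAs. Of these, 0 passed the mark in either direction in the combination, against those same 11.1% and 12.6%. With SAHA alone 1 was higher, against 7.88% of all counted genes. It was Tfb2m (5.53 FPKM with SAHA and 2.05 FPKM with vehicle). No difference from these shares is drawn from lists this small.

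Other gene sets gave a scale for these values. The 80 counted cytosolic ribosomal protein genes had median differences from vehicle of 0.34 in the combination, -0.12 with SAHA and 0.21 with ATRA. In the combination 1 of them was higher at the 2-fold mark (1.25%). The combination was above vehicle in 75 of the 80 (93.8%), a larger share than the 74.7% of the mitochondrial ribosomal protein genes. The 74 counted nuclear genes of the respiratory chain had medians of 0.43 in the combination, 0.22 with SAHA and 0.22 with ATRA, and at the 2-fold mark 15 (20.3%) were higher and 0 lower in the combination, against 11.1% and 12.6% of all counted genes. Their difference from vehicle was above 0 in 54 of the 74 and below 0 in 20. Between combination and SAHA the medians were 0.46 for the cytosolic ribosomal proteins and 0.17 for the respiratory chain, beside 0.33 for the mitochondrial ribosomal proteins. In the same order, the combination was above SAHA for 97.5%, 74.3% and 82.7% of the genes. No test of a difference between these sets was made.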

How the data were processed

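The deposited values are FPKM, 1 column per library, per the file headers. The tools named are Trimmomatic 0.32, a read trimmer, and Cuffdiff, with the build mm10, per the submitters' processing notes. RNA was total RNA depleted of ribosomal RNA, per the labels' protocols. The aligner, the gene annotation, the Cuffdiff version, any scaling between libraries and the strand setting were not given in the sources used here. FPKM values carry no counting interval, and depth was estimated from their lowest steps within fixed search ranges.

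Differences were taken as log2(FPKM + 1) over genes that averaged 1 FPKM or more in the 4 libraries. Folds printed for a single gene are ratios of FPKM, whereas the 2-fold and 1.5-fold marks are differences in log2(FPKM + 1). A low gene can thus pass a fold by its FPKM ratio without passing the mark. With 1 library per group there was no test, and genes were called by size and read against the share of all counted genes. The members and lists were chosen with earlier results of these data known. The genes named are the 6 highest and 6 lowest of each comparison, those highest and lowest by level, by range and by departure, and a fixed set; genes past the 2-fold mark, the genes just outside it and others outside that rule were added after their values were seen. In the split into bacterial counterparts and mitochondria-specific proteins, Mrpl47 and Mrpl55 were reassigned after the values were seen, and 2 counted genes were left unclassed. Of the members, 9 overlap another row, and reads of overlapping genes were not separated here: Mrpl19, Mrpl24, Mrpl41, Mrpl48, Mrpl49, Mrpl53, Mrps25, Mrps27 and Mrps6. Coordinates come from GENCODE M21, and promoter windows from RefSeq. Python 3.11.15, pandas 2.3.3 and numpy 2.4.6 were used. Alternatives were a pseudocount of 0.1, no filter, a mean of at least 5 FPKM, centring on the median of all counted genes, subunit by place, no overlapping genes and, added after seeing the data, a filter on the 2 libraries compared.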

Additional observations from a re-analysis of the deposited data

How the results depend on the processing

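Across the alternatives, 123 values that answer a comparison stayed within the limits set and 14 moved. With a mean of at least 5 FPKM, the large and small subunit medians were 0.45 and 0.12 for SAHA against vehicle and 0.62 and 0.60 for the combination against vehicle, and the small subunit median was 0.55 for the combination against ATRA. Centring each library on the median difference of counted genes from vehicle removed -0.12 from SAHA against vehicle and 0.16 from the combination against SAHA. After it the subunit medians (large, then small) were 0.16 and 0.037 for SAHA against vehicle and 0.13 and 0.27 for the combination against SAHA, no gene (0) was higher in the combination than with SAHA by the 2-fold mark, and the median departure from additivity was 0.14. With a pseudocount of 0.1, 1 gene, Mrpl54, was lower in the combination than with vehicle, and 1 than with ATRA. With subunits taken by place in the ribosome, the small subunit median for SAHA against vehicle was 0.061, and the large minus small difference in that comparison reversed to -0.0535, so no order of the subunits with SAHA is drawn. The counts of genes higher in the combination than with vehicle stayed within 1.5 times under every alternative run.

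No paired analysis was possible because each group has 1 library, and for the same reason leaving out a library was not an option. The deposited values give no counts, and by the depth estimate the lowest of the 76 genes rested on about 35.1 to 73.7 fragments per kilobase in a library, so the lowest genes carry the least certain values.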
